A study of Mus musculus with 12 samples.

Results

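The 54 genes described here code for the machinery of the cell cycle and of DNA replication. They come from a list of well-known cell cycle and replication genes, chosen with earlier results of these data known. All 54 have a value in each of the 12 expression files of the series, which hold 24346 genes. Expression was given as FPKM, sequenced fragments scaled to the length of the transcript and to the mapped total of the library, and 50 of the 54 reached a mean of 0.5 FPKM over the libraries and entered the test across 11395 genes. Cdc6, Bub1b, Cenpe and Cenpf stayed under that mean and are given by their values and an exact test.

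The libraries are bulk RNA sequencing of group 2 innate lymphoid cells (ILC2s) from mouse lung, sorted as lineage-negative cells with Thy1 and ST2 on their surface. The design sets wild-type animals against animals without Sema6d, a transmembrane semaphorin, in lung inflammation brought on by the cytokine IL-33. The labels give the strain as C57BL/6 and no age, while the methods give C57BL/6J and 7 to 12 weeks. The WT PBS group was wild-type mice given PBS into the nose for 3 days, and the 6DKO PBS group was Sema6d−/− mice given the same. The WT IL-33 group was wild-type mice given IL-33 into the nose for 3 days, and the 6DKO IL-33 group was Sema6d−/− mice given the same cytokine. The labels state 50 ng of IL-33, and the methods state another dose. Each group has 3 libraries, and the labels do not say whether each came from a separate mouse or from pooled mice. They name no Cre line and do not describe the deleted allele.

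Sema6d was read in every library. It stood at 27.6, 46.1 and 37.5 FPKM in WT PBS, 29.0, 22.9 and 19.8 in 6DKO PBS, 19.7, 35.5 and 28.7 in WT IL-33 and 15.4, 13.6 and 13.8 in 6DKO IL-33. The genotypes overlapped under PBS (exact permutation test, two-sided p = 0.2) and did not overlap under IL-33 (exact permutation p = 0.1, the smallest that 3 against 3 libraries can give). A value over the whole gene does not show whether the deleted stretch was read.

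Markers of ILC2s were present throughout. All 13 genes of an ILC2 marker list were tested, and Gata3 (295 to 690.0 FPKM), Il1rl1, the IL-33 receptor (117 to 269 FPKM), and Il7r (279.7 to 384 FPKM) were high in all 12 libraries. The summed FPKM of this list, in which Id2 was the most abundant gene, was 7216, 7022 and 7116 in WT PBS, 9369, 5892 and 7692 in 6DKO PBS, 6080.0, 7076 and 7518 in WT IL-33 and 7074, 7027 and 7550.0 in 6DKO IL-33. Eosinophil markers Prg2 and Epx, neutrophil markers S100a8 and S100a9, B cell markers Ms4a1 and Pax5, and Cd4 were at 0 in every library. Other genes of these lists were read: the eosinophil list summed to at most 1.99 FPKM, with Ccr3 the most abundant, and the neutrophil list to at most 4.13 FPKM. The B cell list, with Cd79b the most abundant, summed to 0 to 8.90 FPKM under PBS, 26.9, 14.5 and 11.97 in WT IL-33 and 3.49, 18.4 and 5.91 in 6DKO IL-33. The T cell list summed to between 189.7 and 483.1 FPKM, nearly all of it Cd3g. Mast cell and basophil genes summed to between 17.8 and 89.3 FPKM, nearly all of it Cpa3, with Mcpt8 and Mcpt4 at 0, and were lower in every IL-33 library (17.8 to 40.1 FPKM) than in any PBS library (42.9 to 89.3 FPKM). Epithelial genes summed to between 4.26 and 101 FPKM, endothelial genes to between 1.32 and 20.9 and mesenchymal genes to at most 4.51. Erythroid genes summed to 12.8 to 45.4 FPKM in the PBS libraries and to 3.803 to 9.76 FPKM in the IL-33 libraries.

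Macrophage markers, chiefly Chil3 and Lyz2, set 3 libraries apart, all from Sema6d−/− mice. The libraries called rich in macrophage markers below are these 3, named by the sum of the list. Of 14 listed macrophage genes 12 were found and 7 tested, with Chil3 the most abundant, and the list summed to 0.390, 1.20 and 17.1 FPKM in WT PBS, 5.74, 189 and 10.6 in 6DKO PBS, 6.55, 5.63 and 0.815 in WT IL-33 and 10.5, 428 and 145.5 in 6DKO IL-33. The high libraries were 6DKO PBS replicate 2 (Lyz2 at 112 FPKM and Chil3 at 51.1 FPKM), 6DKO IL-33 replicate 2 (Chil3 at 394 FPKM) and 6DKO IL-33 replicate 3 (Chil3 at 83.1 FPKM and Lyz2 at 57.9 FPKM). 6DKO PBS replicate 2 also held the natural killer cell genes Ncr1 at 58.9 FPKM and Prf1 at 36.3 FPKM, and 6DKO IL-33 replicate 3 the alveolar gene Sftpc at 97.2 FPKM.

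PBS libraries also held many more zeros than IL-33 libraries. Of the 11395 tested genes, 20.52%, 22.63% and 12.93% were at 0 in WT PBS and 25.28%, 13.57% and 14.46% in 6DKO PBS, against 4.29% to 6.0% in the IL-33 libraries. Replicates of 1 group correlated across genes at 0.761 to 0.818 under PBS and at 0.934 to 0.95 under IL-33. The files hold no read totals, and relative depth, read from the smallest values, was 0.739 to 0.998 in PBS libraries and 0.968 to 1.392 in IL-33 libraries. The treatments overlapped in it, with 6DKO PBS replicate 3 (0.998) above 6DKO IL-33 replicate 2 (0.968). The part of depth in the differences between PBS and IL-33 was not tested.

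A cell that leaves rest first builds complexes of D-type cyclins with Cdk4 or Cdk6, then of E-type cyclins with Cdk2, and the E2F factors they release switch on the genes for DNA replication. Replication origins are loaded with the MCM helicase in G1 and fired in S phase, when ribonucleotide reductase and thymidylate synthase supply the DNA building blocks. Transcripts of mitotic regulators accumulate late, towards G2 and M phase, and are scarce in resting cells, and ILC2s of the healthy lung are largely resting cells that divide when IL-33 reaches them.

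Averaged over the 54 genes, log2(FPKM + 1) came to 2.09, 2.17 and 2.18 in WT PBS, 1.84, 2.38 and 2.02 in 6DKO PBS, 3.58, 3.45 and 3.60 in WT IL-33 and 3.22, 3.13 and 3.33 in 6DKO IL-33. Every IL-33 library lay above every PBS library, and under IL-33 the 3 6DKO libraries lay under the 3 WT libraries. The group means were 2.15 ± 0.05 (SD, n = 3) in WT PBS, 2.08 ± 0.28 in 6DKO PBS, 3.54 ± 0.08 in WT IL-33 and 3.23 ± 0.10 in 6DKO IL-33. The mean over all tested genes was 3.27 ± 0.14 in WT PBS, 3.31 ± 0.18 in 6DKO PBS, 3.52 ± 0.01 in WT IL-33 and 3.54 ± 0.03 in 6DKO IL-33. In a bulk library, fewer cells in cycle and less of these RNAs per cell cannot be told apart.

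**Figure D1:**
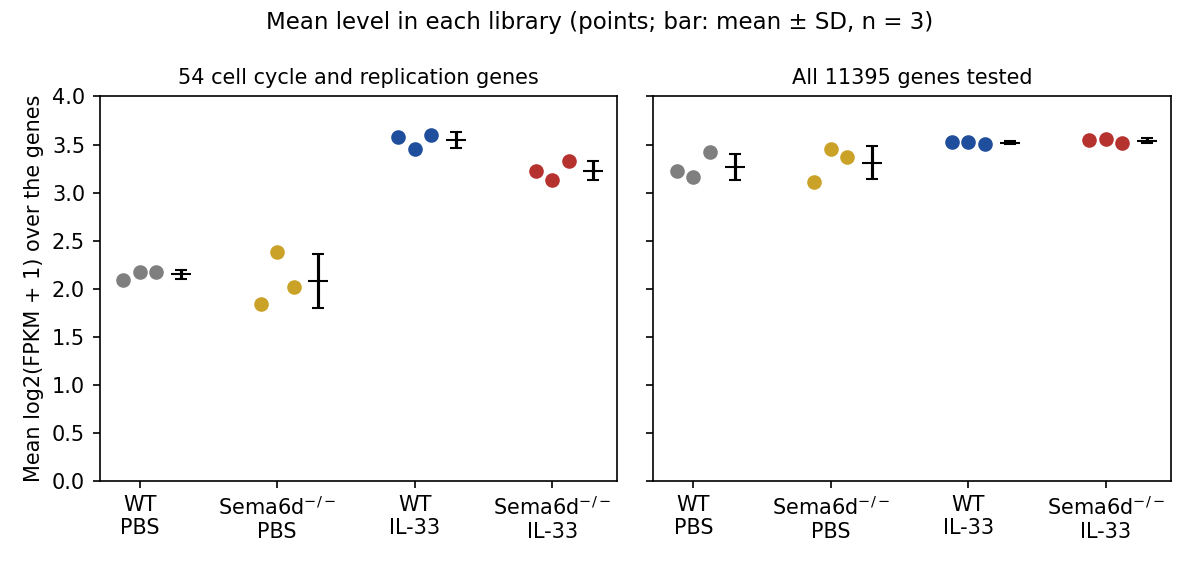
Mean log2(FPKM + 1) over the 54 cell cycle and replication genes and over all 11395 tested genes, on the vertical axis, by group on the horizontal axis; points are libraries and bars are means ± SD (n = 3). The list mean was 3.54 in WT IL-33 and 3.23 in 6DKO IL-33, against 2.15 and 2.08 under PBS.

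Of the 54 genes, 23 were above 0 in all 12 libraries. The other 31 were at 0 in at least 1 PBS library, and none of the 54 was at 0 in any of the 6 IL-33 libraries. In the PBS libraries, 23, 21 and 18 of the genes were at 0 in WT and 24, 15 and 20 in 6DKO. Ccne1, Cdc6, Ccnb1, Cdc20, Ndc80 and Nuf2 were at 0 in all 6 PBS libraries. For genes listed at 0 in a whole group no fold is given, and their log2(FPKM + 1) difference is no bound; for all genes of low FPKM, adding 1 makes the fold on this scale smaller than the fold in FPKM.

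In WT ILC2s, 15 of the 50 tested genes rose after IL-33. They were the cyclin genes Ccne1, Ccna2 and Ccnb1, the mitotic regulators Aurka, Cdc20, Ube2c, Birc5, Cdca8, Nuf2, Kif11 and Stmn1, and Mcm6, Uhrf1, Mki67 and Top2a. Ccnd2 and Ccnd3, the MCM genes other than Mcm6, and Pcna did not pass the test. Of the 50 tested genes 15 were higher after IL-33 and 0 lower in limma at an adjusted p under 0.05, beside 2.66% of all tested genes higher and 1.61% lower. At an unadjusted p under 0.05 the count was 30 of 50 (2011 of all 11395). The median log2 fold change was 1.28 over the 50 genes and 0.16 over all tested genes. Without the 8 genes listed at 0 in a whole group the list's median was 1.11, and for all genes without such genes it was 0.13. WT IL-33 values lay wholly above WT PBS values in 30 of the 50 and wholly under in 3, beside 15.9% and 9.23% of all tested genes. The counts of higher genes thus lay above their background shares and those of lower genes under them. The list was chosen with earlier results of these data known. Tested members listed at 0 throughout PBS passed the filter through their IL-33 values alone. The comparisons with background, here and below, are therefore a description and no independent support. Leaving out WT IL-33 replicate 1, 2 or 3 lowered the count of 15 to 8, 9 and 8, and the share of all tested genes called in either direction to 1.77%, 2.13% and 2.02%. Testing all 54 genes with no filter gave 14 higher. The p-values measure the spread between libraries, of which the fit takes 1 estimate a gene for all 4 groups. Replicates were less alike under PBS (correlations of 0.761 to 0.818) than under IL-33 (0.934 to 0.95).

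In Sema6d−/− ILC2s, 6 of the 50 were higher after IL-33 and 0 lower in limma, beside 1.75% of all tested genes higher and 1.1% lower. They were cyclin E2, cyclin B1, Aurka, Cdc20, Ube2c and Hmgb2. At an unadjusted p under 0.05 the count was 27 of 50 (1731 of all 11395). The median log2 fold change was 1.34 over the 50 genes, 1.22 without the 9 listed at 0 in a whole group, and 0.14 over all tested genes. 6DKO IL-33 values lay wholly above 6DKO PBS values in 21 of the 50 and wholly under in 2, beside 13.9% and 8.75% of all tested genes, again above the background for higher genes and under it for lower ones. The count of 6 higher became 10 without WT PBS replicate 2, 6DKO PBS replicate 2 or 6DKO PBS replicate 3, 3 without 6DKO IL-33 replicate 2 and 2 without 6DKO IL-33 replicate 3, while 3.76%, 4.18%, 3.29%, 1.07% and 1.25% of all tested genes were called in either direction. Without 6DKO PBS replicate 2 or any 1 of the 3 WT PBS libraries, 1 gene, Mcm7, was called lower. Without all 3 libraries rich in macrophage markers, a choice made after their values were seen, it was 0 (0.272% of all tested genes called), with 20 of 50 at an unadjusted p under 0.05 (1018 of all 11395) and a median of 1.44; only 1 library then stood for 6DKO IL-33 and was assumed to vary like the others. The interaction of genotype and treatment, which asks whether the IL-33 response differed between WT and 6DKO, called 0 of the 50 in limma (0.0176% of all tested genes), with 1 of 50 at an unadjusted p under 0.05 (635 of all 11395). None of the calls made in 1 genotype alone is therefore shown to differ between the genotypes.

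**Figure D2:**
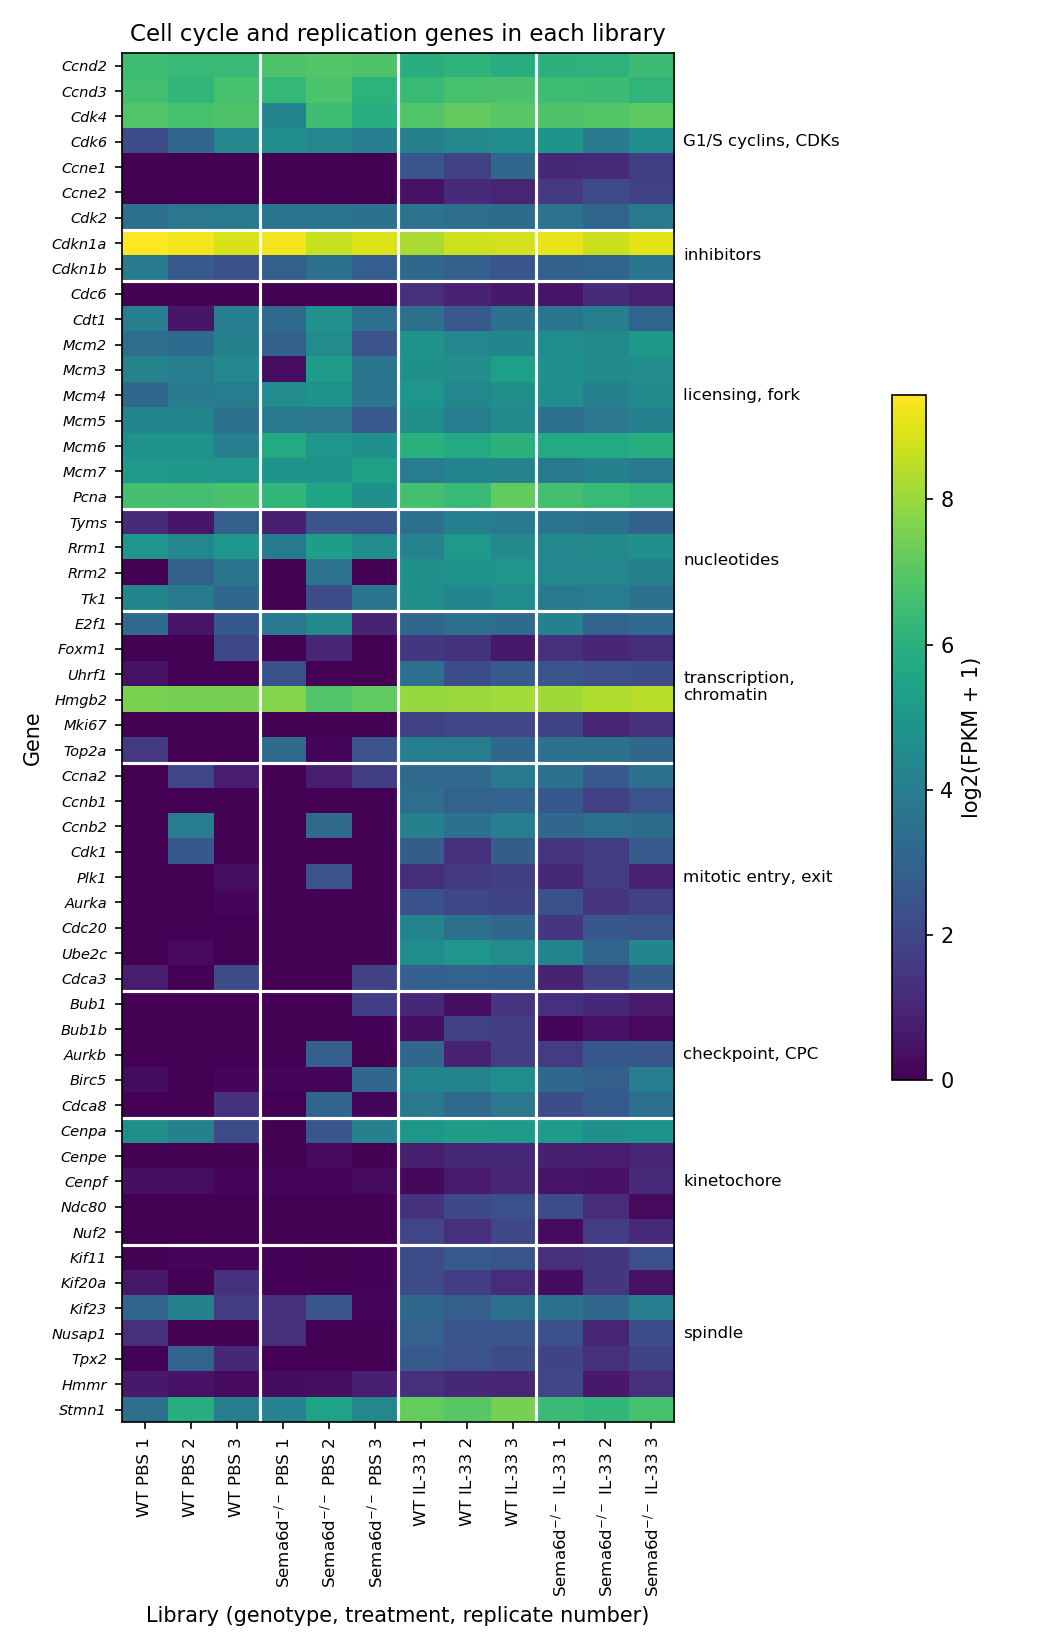
Expression of the 54 genes, ordered by role on the vertical axis, in the 12 libraries on the horizontal axis, as colour on the log2(FPKM + 1) scale. Ccne1, Cdc6, Ccnb1, Cdc20, Ndc80 and Nuf2 are at 0 in all 6 PBS libraries and above 0 in all 6 IL-33 libraries, while Ccnd2, Ccnd3, Cdkn1a and Pcna are read in every library.

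Among the 7 G1 cyclins and their kinases, 1 rose in each genotype, Ccne1 in WT and Ccne2 in 6DKO. Cyclin E1 (Ccne1), which starts S phase with Cdk2, was at 0 FPKM in all 6 PBS libraries, 4.82, 2.61 and 7.9 in WT IL-33 and 1.06, 1.16 and 2.38 in 6DKO IL-33. All 6 IL-33 libraries lay above the 6 PBS libraries, where Ccne1 was listed at 0, and the 6DKO IL-33 values lay under the WT IL-33 values. Ccne1 rose in WT (log2(FPKM + 1) difference 2.52, standard error 0.43, adjusted p = 0.00693), a call kept with each library left out, and did not pass in 6DKO (log2(FPKM + 1) difference 1.30, standard error 0.43, adjusted p = 0.156). Cyclin E2 (Ccne2) was at 0 FPKM in all 3 WT PBS libraries, 0.0515, 0.0505 and 0 in 6DKO PBS, 0.374, 1.18 and 0.955 in WT IL-33 and 1.98, 3.49 and 2.65 in 6DKO IL-33. Here the order of the genotypes was the opposite, with the 6DKO IL-33 values above the WT IL-33 values, and all 6 IL-33 values above the PBS values. Ccne2 rose in 6DKO (log2 fold change 1.82, standard error 0.36, adjusted p = 0.0197) and did not pass in WT (log2(FPKM + 1) difference 0.85, standard error 0.36, adjusted p = 0.239). The 6DKO call for Ccne2 was lost without 6DKO IL-33 replicate 2 or 3 (adjusted p 0.0528 and 0.0762). Exons of Ccne2 overlap Ints8 on the other strand, and the labels and the methods name different library kits, so the strand of the reads is uncertain and with it the share of such overlaps in a value.

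Cyclins D2 and D3 and the kinases Cdk4 and Cdk6 were already read under PBS, while Ccnd1, outside the 54 genes, was at 0 in 9 of the 12 libraries. Cyclin D2 (Ccnd2) was at 89, 80.1 and 82.3 FPKM in WT PBS, 110.0, 118 and 114 in 6DKO PBS, 59.9, 69.3 and 57.2 in WT IL-33 and 66.6, 67.5 and 87 in 6DKO IL-33. Its IL-33 values lay under the PBS values in both genotypes, without passing the test (log2 fold change -0.43, standard error 0.18, adjusted p = 0.248 in WT; log2 fold change -0.63, standard error 0.18, adjusted p = 0.106 in 6DKO). Cyclin D3 (Ccnd3) ranged over 68.3 to 109 FPKM in PBS and 71 to 104 FPKM in IL-33 libraries, and Cdk2, the partner of the E-type cyclins, over 9.89 to 13.2 and 7.23 to 13 FPKM. The D cyclin partner Cdk4 spread over 18.2 to 117 FPKM in PBS libraries, with 6DKO PBS replicate 1 the lowest, and over 111 to 144 FPKM in IL-33 libraries. Cdk6, its relative, spread over 3.44 to 23.9 and 14.2 to 28.3 FPKM, with its lowest values in WT PBS. Leaving out 1 library brought a call for Cdk4 in 6DKO (6DKO PBS replicate 2; adjusted p 0.0258) and for Cdk6 in WT (WT PBS replicate 3; adjusted p 0.0369). Exons of Ccnd3 overlap Bysl, those of Cdk4 Tspan31 and those of Cdk2 Pmel, each on the other strand.

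The 2 inhibitors were read in every library, and 0 of 2 passed the test in either genotype. Cdkn1a, which codes for the p21 inhibitor of cyclin-dependent kinases, was the most abundant of the 54 genes, at 692, 620.2 and 470.4 FPKM in WT PBS, 615, 396 and 485 in 6DKO PBS, 302, 424 and 448 in WT IL-33 and 555, 406 and 531 in 6DKO IL-33. The WT IL-33 values lay under the WT PBS values, while the 6DKO groups overlapped. The differences did not pass (log2 fold change -0.60, standard error 0.22, adjusted p = 0.166 in WT; log2 fold change 0.01, standard error 0.22, adjusted p = 0.9997 in 6DKO). Cdkn1b, which codes for the p27 inhibitor of cyclin E with Cdk2, was at 13.5, 5.26 and 4.08 FPKM in WT PBS, 6.28, 10.03 and 6.07 in 6DKO PBS, 7.79, 6.42 and 4.78 in WT IL-33 and 6.71, 7.3 and 11.9 in 6DKO IL-33. The 4 groups overlapped, with WT PBS replicate 1 and 6DKO IL-33 replicate 3 the highest, and the log2 fold changes were -0.09 in WT and 0.18 in 6DKO (adjusted p 0.958 and 0.909). The sign of these small differences turned when 1 library was left out: for Cdkn1b in WT it was 0.36 without WT PBS replicate 1 and 0.07 without WT IL-33 replicate 3, and in 6DKO −0.05 without 6DKO IL-33 replicate 3. For Cdkn1a in 6DKO it was −0.15 and −0.0025 without 6DKO PBS replicate 2 and 3, and −0.08 and −0.05 without 6DKO IL-33 replicate 1 and 3.

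Of the licensing and replication genes, 1 of 8 tested rose in WT and 0 of 8 in 6DKO. Mcm6, a subunit of the replicative helicase, was at 27.6, 27.8 and 16.1 FPKM in WT PBS, 53.6, 29.2 and 25.9 in 6DKO PBS, 63.7, 53 and 65.8 in WT IL-33 and 52.9, 53.2 and 61.6 in 6DKO IL-33. WT IL-33 values lay wholly above WT PBS values, whereas in 6DKO the PBS replicate 1 value was level with the IL-33 values. Mcm6 rose in WT (log2 fold change 1.35, standard error 0.32, adjusted p = 0.0332), and in 6DKO it did not pass (log2 fold change 0.68, standard error 0.32, adjusted p = 0.334). The WT call was lost without WT PBS replicate 3 or without any 1 of the 6 IL-33 libraries (adjusted p 0.0558 to 0.133). Pcna, the sliding clamp of the DNA polymerases, was at 100.1, 98.3 and 104 FPKM in WT PBS, 74.2, 46.9 and 25.7 in 6DKO PBS, 97.8, 84.1 and 142 in WT IL-33 and 97.8, 81.6 and 72.1 in 6DKO IL-33. WT values overlapped between PBS and IL-33, and the 2 lowest values were in 6DKO PBS. The difference between IL-33 and PBS did not pass in WT (log2 fold change 0.06, standard error 0.33, adjusted p = 0.958; 0.12, 0.23 and −0.15 without WT IL-33 replicate 1, 2 and 3 in turn) or in 6DKO (log2 fold change 0.88, standard error 0.33, adjusted p = 0.228; 0.49 without 6DKO PBS replicate 3). Pseudogenes of Pcna named in the annotation, Pcna-ps1 and Pcna-ps2, leave the source of some reads uncertain.

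Mcm7 was the helicase subunit that stood lower after IL-33. It was at 33.4, 31.3 and 29.98 FPKM in WT PBS, 28.3, 28 and 40.2 in 6DKO PBS, 14.7, 17.9 and 17.7 in WT IL-33 and 12.9, 16.1 and 13.2 in 6DKO IL-33. All 6 IL-33 values lay under all 6 PBS values. The difference did not pass the test (log2 fold change -0.88, standard error 0.28, adjusted p = 0.108 in WT; log2 fold change -1.13, standard error 0.28, adjusted p = 0.0524 in 6DKO), and exons of Mcm7 overlap Cops6 and Ap4m1 on the other strand and the microRNA genes Mir25 and Mir93 on the same strand. In 6DKO, Mcm7 passed at an adjusted p of 0.0404, 0.0417, 0.0485 and 0.0392 without WT PBS replicate 1, 2 or 3 or 6DKO PBS replicate 2.

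Other subunits of the helicase did not pass in either genotype. Mcm2 was at 4.33 to 22.2 FPKM in PBS and 19.1 to 31.3 FPKM in IL-33 libraries, Mcm3 at 0.271 to 34.9 and 22 to 39.2, Mcm4 at 7.92 to 28.1 and 16.8 to 30.1, and Mcm5 at 5.61 to 18.1 and 10.2 to 24.8. WT IL-33 values lay wholly above WT PBS values for Mcm2, Mcm3 and Mcm4. The lowest PBS value of Mcm3 was that of 6DKO PBS replicate 1. Cdt1, which loads the helicase onto origins, ran from 0.485 to 26 FPKM in PBS libraries, lowest in WT PBS replicate 2, and from 5.15 to 15.2 FPKM in IL-33 libraries. Its loading partner Cdc6 was at 0 in all 6 PBS libraries, 1.46, 0.925 and 0.565 FPKM in WT IL-33 and 0.455, 1.26 and 0.829 FPKM in 6DKO IL-33 (exact permutation p = 0.1 in each genotype). Mcm2 passed in 6DKO without 6DKO PBS replicate 2 (log2 fold change 2.02, adjusted p = 0.0202).

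Of the enzymes that make deoxynucleotides, Rrm2 and Tyms stood higher in every IL-33 library than in any PBS library, and 0 of 4 passed the test in either genotype (unadjusted p under 0.05 in 2 of 4 in each). Rrm2, the regulated subunit of ribonucleotide reductase, was at 0, 6.34 and 12.1 FPKM in WT PBS, 0, 11 and 0 in 6DKO PBS, 25.4, 26.9 and 29.4 in WT IL-33 and 20.3, 19.8 and 16.6 in 6DKO IL-33. All IL-33 values lay above all PBS values, 3 of which were 0, and the 6DKO IL-33 values lay under the WT IL-33 values. Tyms, thymidylate synthase, was at 1.24, 0.498 and 6.18 FPKM in WT PBS, 0.728, 4.67 and 4.54 in 6DKO PBS, 10.3, 15.7 and 13.6 in WT IL-33 and 11.4, 9.98 and 6.53 in 6DKO IL-33. Here too the 6 IL-33 values lay above the 6 PBS values (WT: log2 fold change 2.28, standard error 0.66, adjusted p = 0.0807; 6DKO: log2 fold change 1.41, standard error 0.66, adjusted p = 0.337, or 0.85 without 6DKO PBS replicate 1). Thymidine kinase (Tk1) ran from 0 to 19.2 FPKM in PBS libraries and from 10.7 to 24.9 FPKM in IL-33 libraries. Rrm1, the large subunit of the reductase, was at 13.6 to 36.9 FPKM and 17.1 to 32.2 FPKM, with overlapping groups. Rrm2 and Tk1 passed in 6DKO without 6DKO PBS replicate 2 and replicate 3 in turn (adjusted p 0.0265 and 0.0462), and Tyms in WT without WT PBS replicate 3 or 6DKO PBS replicate 1 (adjusted p 0.0229 and 0.0399).

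Of 6 regulators of transcription and chromatin, 3 rose in WT and 1 in 6DKO. Mki67, which codes for the proliferation marker Ki-67 that coats mitotic chromosomes, was at 0, 0.0279 and 0 FPKM in WT PBS, 0.0147, 0.0144 and 0 in 6DKO PBS, 2.54, 3.05 and 3.02 in WT IL-33 and 2.72, 0.973 and 1.43 in 6DKO IL-33. Every IL-33 value lay above every PBS value, and the 2 lowest of the 6 IL-33 values were 6DKO replicates 2 and 3, libraries with macrophage markers. Mki67 rose in WT (log2 fold change 1.94, standard error 0.37, adjusted p = 0.0125), a call kept with each library left out but lost with quantile normalization (log2 fold change 1.07, adjusted p 0.242) and with array weights (adjusted p 0.0549). In 6DKO it did not pass (log2 fold change 1.37, standard error 0.37, adjusted p = 0.0813), except on adding 0.1 in place of 1, testing every gene or fitting without trend (adjusted p 0.0179, 0.0182 and 0.0277); with quantile normalization its log2 fold change there was 0.20. Top2a, the topoisomerase that untangles replicated chromosomes, was at 2.01, 0 and 0 FPKM in WT PBS, 8.58, 0.0852 and 4.3 in 6DKO PBS, 15.8, 14.8 and 8.1 in WT IL-33 and 10.4, 10.4 and 7.78 in 6DKO IL-33. WT IL-33 values lay above WT PBS values, and in 6DKO the groups overlapped through PBS replicate 1. The rise of Top2a in WT passed the test (log2 fold change 3.21, standard error 0.76, adjusted p = 0.0351) and 6DKO did not (log2 fold change 1.46, standard error 0.76, adjusted p = 0.3997). The WT call was lost without WT PBS replicate 2 or 3 or without any 1 of the 6 IL-33 libraries (adjusted p 0.0619 to 0.137), and without 6DKO PBS replicate 2 the 6DKO log2 fold change was 0.55.

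Uhrf1, which carries DNA methylation over to the new strand, was at 0.362, 0 and 0 FPKM in WT PBS, 4.26, 0 and 0 in 6DKO PBS, 10.2, 3.8 and 5.35 in WT IL-33 and 4.78, 3.88 and 3.66 in 6DKO IL-33. The WT groups did not overlap, and in 6DKO the PBS value of replicate 1 lay within the IL-33 values. Uhrf1 rose in WT (log2 fold change 2.66, standard error 0.65, adjusted p = 0.03998), a call lost without any 1 of the 3 WT PBS and 6 IL-33 libraries (adjusted p 0.0646 to 0.158). In 6DKO it did not pass (log2 fold change 1.55, standard error 0.65, adjusted p = 0.273), except without 6DKO PBS replicate 1, which leaves 6DKO PBS at 0 (log2(FPKM + 1) difference 2.35, adjusted p 0.0293). Hmgb2, a chromatin protein of dividing cells, was at 186, 178 and 182 FPKM in WT PBS, 203, 117 and 138 in 6DKO PBS, 242, 259 and 276 in WT IL-33 and 269.9, 319 and 342 in 6DKO IL-33. All IL-33 values lay above all PBS values, with the 2 highest in 6DKO. Hmgb2 rose in 6DKO (log2 fold change 1.05, standard error 0.20, adjusted p = 0.0157) and did not pass in WT (log2 fold change 0.51, standard error 0.20, adjusted p = 0.192). Its 6DKO call was lost without 6DKO IL-33 replicate 2 or 3 (adjusted p 0.0683 and 0.0731). E2f1, the factor that drives S-phase genes, ran from 0.442 to 21.1 FPKM in PBS and 7.29 to 16.8 FPKM in IL-33 libraries, and Foxm1, a factor for mitotic genes, from 0 to 3.12 and 0.529 to 1.88 FPKM; the groups of both overlapped. Exons of Foxm1 overlap Tex52 on the same strand.

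Genes of mitotic entry and exit gave the most calls of any role, 5 of 9 in WT and 4 of 9 in 6DKO. Their averaged log2(FPKM + 1) came to 0.48 ± 0.46 in WT PBS, 0.37 ± 0.36 in 6DKO PBS, 3.08 ± 0.16 in WT IL-33 and 2.41 ± 0.25 in 6DKO IL-33 (SD, n = 3). Ube2c, the ubiquitin-conjugating enzyme of the anaphase-promoting complex, was at 0, 0.19 and 0 FPKM in WT PBS, 0 in all 3 6DKO PBS libraries, 23.3, 29.1 and 22.5 in WT IL-33 and 18.1, 7.34 and 19 in 6DKO IL-33. It was near 0 under PBS, and the 6DKO IL-33 values lay under those of WT IL-33. Ube2c rose in WT (log2 fold change 4.61, standard error 0.47, adjusted p = 0.000313) and in 6DKO (log2(FPKM + 1) difference 3.88, standard error 0.47, adjusted p = 0.00123), both kept with each single library left out, the latter lost without the 3 libraries rich in macrophage markers (adjusted p 0.0554). Cdc20, which activates the same complex at anaphase, was at 0 FPKM in all 6 PBS libraries, 18.1, 10.2 and 8.14 in WT IL-33 and 1.8, 5.13 and 4.33 in 6DKO IL-33. It was listed at 0 throughout PBS, and its 6DKO IL-33 values lay under those of WT IL-33. Cdc20 rose in WT (log2(FPKM + 1) difference 3.64, standard error 0.47, adjusted p = 0.00132) and in 6DKO (log2(FPKM + 1) difference 2.17, standard error 0.47, adjusted p = 0.0302). The 6DKO call was lost without 6DKO PBS replicate 1 or 6DKO IL-33 replicate 2 or 3 (adjusted p 0.0505 to 0.132). Exons of Ube2c overlap Tnnc2, and those of Cdc20 Elovl1, on the other strand.

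Cyclin B1 (Ccnb1), which takes cells into mitosis with Cdk1, was at 0 FPKM in all 6 PBS libraries, 9.58, 7.01 and 7.54 in WT IL-33 and 5.08, 2.52 and 4.33 in 6DKO IL-33. It too was listed at 0 throughout PBS, with lower values in 6DKO IL-33 than in WT IL-33. Ccnb1 rose in WT (log2(FPKM + 1) difference 3.17, standard error 0.40, adjusted p = 0.0013) and in 6DKO (log2(FPKM + 1) difference 2.28, standard error 0.40, adjusted p = 0.0112), the latter lost without 6DKO IL-33 replicate 1 (adjusted p 0.0522). Cyclin A2 (Ccna2), of S phase and G2, was at 0, 2.9 and 0.688 FPKM in WT PBS, 0, 0.655 and 2.35 in 6DKO PBS, 8.37, 8.24 and 13.7 in WT IL-33 and 10.1, 5.19 and 10.3 in 6DKO IL-33. The 6 IL-33 values lay above the 6 PBS values, and the genotypes overlapped. Ccna2 rose in WT (log2 fold change 2.53, standard error 0.63, adjusted p = 0.0455), lost without WT PBS replicate 1 or 3, 6DKO PBS replicate 2 or any 1 of the 6 IL-33 libraries (adjusted p 0.0509 to 0.179), and did not pass in 6DKO (log2 fold change 2.38, standard error 0.63, adjusted p = 0.0732), except without WT PBS replicate 2 or 6DKO PBS replicate 3 (adjusted p 0.0416 and 0.0437). Aurka, the kinase of the spindle poles, was at 0, 0 and 0.0816 FPKM in WT PBS, 0 in all 3 6DKO PBS libraries, 4.16, 3.16 and 2.82 in WT IL-33 and 4.01, 1.72 and 2.67 in 6DKO IL-33. It was at 0 in 5 of the 6 PBS libraries and above 1 FPKM in all 6 IL-33 libraries. Aurka rose in WT (log2 fold change 2.08, standard error 0.39, adjusted p = 0.0109) and in 6DKO (log2(FPKM + 1) difference 1.88, standard error 0.39, adjusted p = 0.0244), the latter lost without 6DKO IL-33 replicate 1 or 3 (adjusted p 0.0708 and 0.0884). Pseudogenes of Ccnb1 and Ccnb2 are annotated, and exons of Ccna2 overlap Exosc9 on the other strand.

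Cdk1, the kinase that drives mitosis, was at 0, 5.03 and 0 FPKM in WT PBS, 0 in all 3 6DKO PBS libraries, 5.86, 1.42 and 5.81 in WT IL-33 and 1.65, 2.19 and 5.58 in 6DKO IL-33. Only WT PBS replicate 2 read it under PBS, within the WT IL-33 values, and neither genotype passed (log2 fold change 1.41, standard error 0.73, adjusted p = 0.354 in WT, and 2.27 without WT PBS replicate 2, which leaves WT PBS at 0; log2(FPKM + 1) difference 1.93, standard error 0.73, adjusted p = 0.22 in 6DKO). Cyclin B2 (Ccnb2) was at 0, 15.2 and 0 FPKM in WT PBS, 0, 8.53 and 0 in 6DKO PBS, 16.7, 10.8 and 15.2 in WT IL-33 and 7.62, 10.1 and 9.19 in 6DKO IL-33. It was at 0 in 4 of the 6 PBS libraries and high in WT PBS replicate 2 and 6DKO PBS replicate 2 (WT: log2 fold change 2.57, standard error 1.08, adjusted p = 0.238; 6DKO: log2 fold change 2.23, standard error 1.08, adjusted p = 0.363), and without WT PBS replicate 2 it passed in WT (log2(FPKM + 1) difference 3.91, adjusted p = 0.0336). Plk1, a mitotic kinase, was at 0 in 4 PBS libraries, at 0.276 FPKM in WT PBS replicate 3, and at 4.35 FPKM in 6DKO PBS replicate 2, above every IL-33 value (0.927 to 2.45 FPKM), and passed in WT without 6DKO PBS replicate 2 (adjusted p 0.0254). Cdca3, a cell division gene, was at 6.38, 6.94 and 6.49 FPKM in WT IL-33 and 0.853, 2.56 and 5.96 FPKM in 6DKO IL-33, against 0 to 3.55 FPKM under PBS. With all libraries, Plk1 and Cdca3 did not pass in either genotype.

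**Figure D3:**
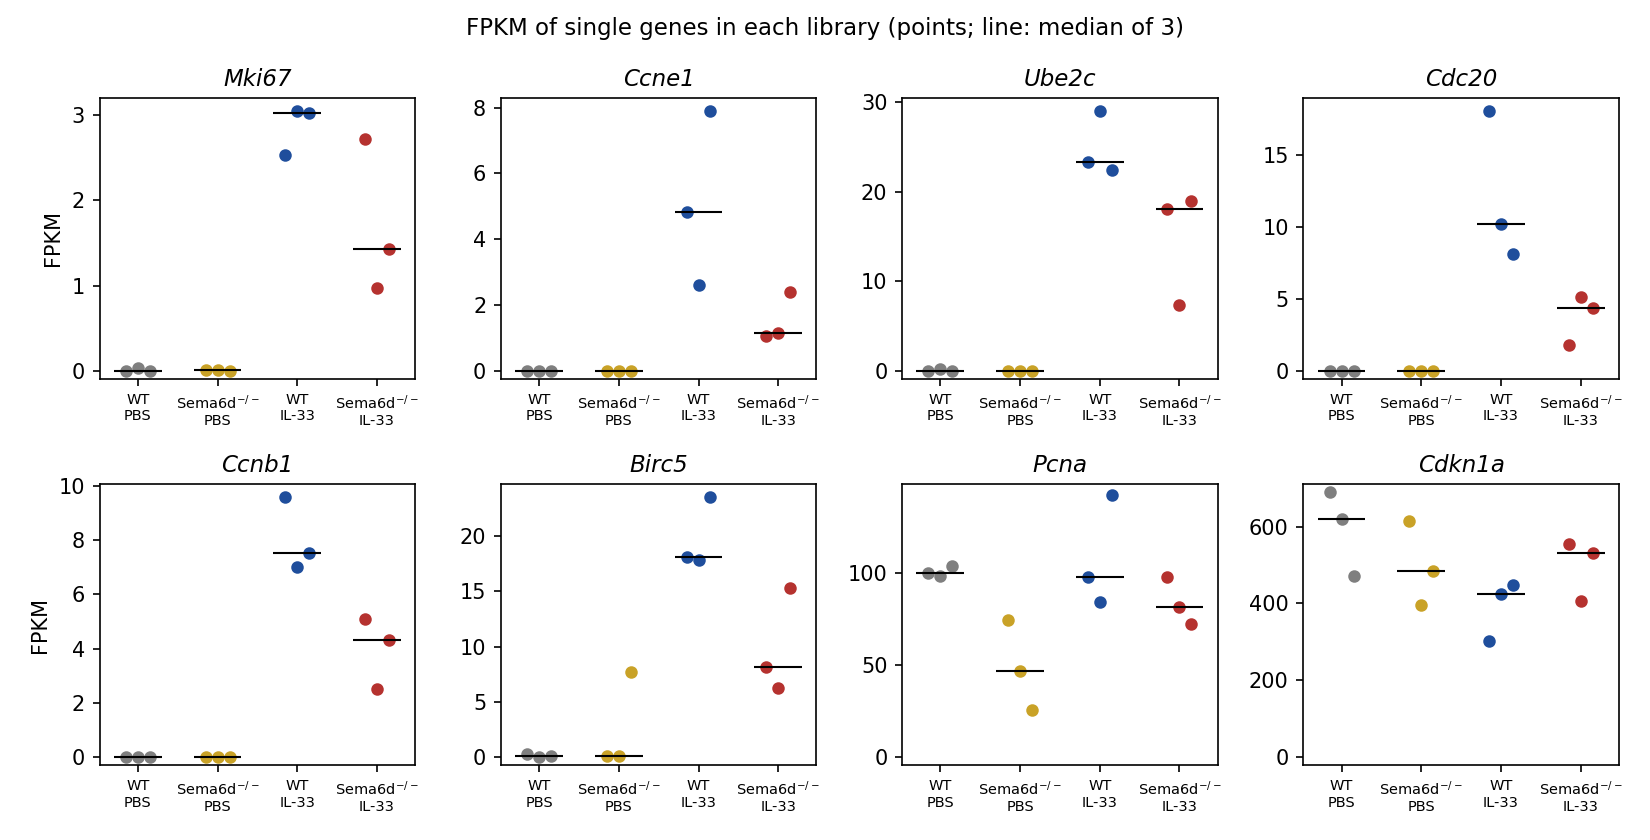
FPKM (vertical axes, linear) of single cell cycle genes by group (horizontal axes); points are libraries and lines are medians of 3. Cdc20 and Ccnb1 are at 0 in all 6 PBS libraries, and their 6DKO IL-33 points lie under the WT IL-33 points.

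In the spindle checkpoint and the chromosomal passenger complex, 2 of 4 tested genes rose in WT and 0 of 4 in 6DKO. Birc5, which codes for survivin, the passenger subunit that docks at centromeres, was at 0.258, 0 and 0.0859 FPKM in WT PBS, 0.0905, 0.133 and 7.71 in 6DKO PBS, 18.2, 17.9 and 23.5 in WT IL-33 and 8.16, 6.3 and 15.3 in 6DKO IL-33. WT values were near 0 under PBS, while 6DKO PBS replicate 3 read it at a level seen under IL-33, and the 6DKO IL-33 values lay under those of WT IL-33. Birc5 rose in WT (log2 fold change 4.22, standard error 0.73, adjusted p = 0.00777), kept with each library left out, and did not pass in 6DKO (log2 fold change 2.22, standard error 0.73, adjusted p = 0.156). Without 6DKO PBS replicate 3 the 6DKO difference passed (log2 fold change 3.21, adjusted p = 0.00948). Cdca8, which codes for the passenger subunit borealin, was at 0, 0 and 1.55 FPKM in WT PBS, 0, 7.52 and 0.0863 in 6DKO PBS, 12.6, 8.7 and 12.5 in WT IL-33 and 3.7, 5.43 and 10.03 in 6DKO IL-33. The WT groups did not overlap, and 6DKO PBS replicate 2 lay within the IL-33 values of its genotype. Cdca8 rose in WT (log2 fold change 3.15, standard error 0.79, adjusted p = 0.0463), lost without WT PBS replicate 1 or 2 or any 1 of the 6 IL-33 libraries (adjusted p 0.0676 to 0.157). In 6DKO it passed only without 6DKO PBS replicate 2 (adjusted p 0.0293).

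Aurkb, the kinase of the passenger complex, was at 0 in 5 PBS libraries, at 6.18 FPKM in 6DKO PBS replicate 2, at 7.68, 0.826 and 2.31 FPKM in WT IL-33 and at 2.12, 4.98 and 4.69 FPKM in 6DKO IL-33. The checkpoint kinase Bub1 was also at 0 in 5 PBS libraries, and at 2.34 FPKM in 6DKO PBS replicate 3 it lay above every IL-33 value (0.269 to 1.78 FPKM). Neither passed in either genotype. Bub1b, which codes for the checkpoint protein BubR1, was at 0.304, 2.57 and 2.29 FPKM in WT IL-33, 0.126, 0.365 and 0.167 FPKM in 6DKO IL-33 and at most 0.0707 FPKM under PBS (exact permutation p = 0.1 for IL-33 against PBS in each genotype).

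Of 3 tested kinetochore genes, 1 rose in WT and 0 in 6DKO. Nuf2, a subunit of the complex that binds microtubules, was at 0 FPKM in all 6 PBS libraries, 2.96, 1.42 and 3.12 in WT IL-33 and 0.199, 2.13 and 1.26 in 6DKO IL-33. It was listed at 0 throughout PBS, and the genotypes overlapped under IL-33. Nuf2 rose in WT (log2(FPKM + 1) difference 1.77, standard error 0.43, adjusted p = 0.0392), lost without any 1 of the 3 WT PBS and 3 WT IL-33 libraries or 6DKO IL-33 replicate 3 (adjusted p 0.0511 to 0.134), and did not pass in 6DKO (log2(FPKM + 1) difference 1.03, standard error 0.43, adjusted p = 0.271). Its partner Ndc80 was likewise at 0 throughout PBS, at 1.54, 3.29 and 3.92 FPKM in WT IL-33 and at 3.45, 1.27 and 0.174 FPKM in 6DKO IL-33. Ndc80 missed the threshold in WT (log2(FPKM + 1) difference 1.92, standard error 0.49, adjusted p = 0.0514) and passed there without 6DKO PBS replicate 1 or 2 or 6DKO IL-33 replicate 1 or 3 (adjusted p 0.0473, 0.0459, 0.0281 and 0.0319).

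Cenpa, the histone that marks centromeres, was at 25, 16.9 and 3.4 FPKM in WT PBS, 0, 4.62 and 16.4 in 6DKO PBS, 31, 38.1 and 33 in WT IL-33 and 35.1, 25.6 and 27.5 in 6DKO IL-33. All IL-33 values lay above all PBS values, and PBS libraries spread widely (WT: log2 fold change 1.46, standard error 0.88, adjusted p = 0.445; 6DKO: log2 fold change 2.71, standard error 0.88, adjusted p = 0.151). The log2 fold change was 0.69 in WT without WT PBS replicate 3 and 1.61 in 6DKO without 6DKO PBS replicate 1. Without 6DKO PBS replicate 3 Cenpa passed in 6DKO (log2 fold change 3.67, adjusted p = 0.0390). The motor Cenpe was at 0 in 5 PBS libraries, at 0.187 FPKM in 6DKO PBS replicate 2 and at 0.631 to 1.12 FPKM under IL-33 (exact permutation p = 0.1 in each genotype). The kinetochore gene Cenpf stayed low, at 0.0931 to 0.303 FPKM under PBS and 0.153 to 1.22 FPKM under IL-33 (exact permutation p = 0.3 in WT and 0.1 in 6DKO).

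Among spindle and cytokinesis genes, 2 of 7 rose in WT and 0 of 7 in 6DKO. Kif11, the motor that pushes spindle poles apart, was at 0, 0.119 and 0.0897 FPKM in WT PBS, 0.063, 0.0308 and 0.0531 in 6DKO PBS, 3.5, 5.28 and 4.5 in WT IL-33 and 1.4, 1.83 and 3.96 in 6DKO IL-33. All 6 IL-33 values lay above all PBS values, and only 6DKO IL-33 replicate 3 reached the WT IL-33 range. Kif11 rose in WT (log2 fold change 2.33, standard error 0.41, adjusted p = 0.00805), kept with each library left out but lost with quantile normalization (adjusted p 0.114), and missed the threshold in 6DKO (log2 fold change 1.62, standard error 0.41, adjusted p = 0.0581), where it passed without WT PBS replicate 1 or 2 (adjusted p 0.0475 and 0.0472), on adding 0.1 in place of 1 (0.0221), testing every gene (0.0270) or fitting without trend (0.0218), and where quantile normalization lowered its log2 fold change to 0.39. Stmn1, which codes for the microtubule-destabilising protein stathmin, was at 10.3, 58.6 and 14.7 FPKM in WT PBS, 17.2, 43.6 and 19.7 in 6DKO PBS, 147, 127 and 182 in WT IL-33 and 85.1, 75 and 102 in 6DKO IL-33. It was read in every library, higher in every IL-33 library than in any PBS library, and lower in the 6DKO IL-33 libraries than in the WT IL-33 libraries. Stmn1 rose in WT (log2 fold change 2.79, standard error 0.53, adjusted p = 0.0123), lost without WT IL-33 replicate 1 or 3 (adjusted p 0.0558 and 0.0643). In 6DKO it did not pass (log2 fold change 1.78, standard error 0.53, adjusted p = 0.117), except without WT PBS replicate 2 (adjusted p 0.0187).

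The other spindle genes did not pass in either genotype. Nusap1, which bundles spindle microtubules, was at 0 in 4 PBS libraries, at 1.43 FPKM in WT PBS replicate 1 and 1.42 FPKM in 6DKO PBS replicate 1, at 6.83, 4.44 and 4.8 FPKM in WT IL-33 and at 3.96, 0.952 and 3.71 FPKM in 6DKO IL-33 (WT: log2 fold change 2.22, standard error 0.58, adjusted p = 0.0545), and passed in WT without WT PBS replicate 1 or 6DKO PBS replicate 1 (adjusted p 0.0363 and 0.0316). Tpx2, the activator of Aurka, was at 5.14, 4.3 and 3.42 FPKM in WT IL-33 and 2.86, 1.5 and 2.87 FPKM in 6DKO IL-33, with 7.09 FPKM in WT PBS replicate 2 above them all. Without WT PBS replicate 2, Tpx2 passed in WT and in 6DKO (adjusted p 0.0481 and 0.0440). The cytokinesis motor Kif20a was at 0 to 1.52 FPKM under PBS and 0.234 to 3.53 FPKM under IL-33, and its relative Kif23 at 0.114 to 16.5 and 6.32 to 14.6 FPKM. Hmmr, a spindle-binding protein, was at 0.223 to 0.727 and 0.545 to 3.04 FPKM. Exons of Nusap1 overlap Oip5, and those of Kif20a Cdc23, on the other strand.

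Under IL-33, most of these genes stood a little lower in Sema6d−/− than in WT ILC2s, and none passed the test. By role, 6DKO minus WT under IL-33 in averaged log2(FPKM + 1) was −0.66 for mitotic entry and exit, −0.49 for the checkpoint and passenger genes, −0.49 for the spindle genes, −0.44 for the nucleotide enzymes and −0.35 for the kinetochore genes. These 5 values moved by less than 1.5 times with any 1 IL-33 library left out and without the libraries rich in macrophage markers. The other roles moved more. The 2 inhibitors were above 0, at 0.36 (0.22 without 6DKO IL-33 replicate 3). The licensing genes were at −0.16 (−0.10 without WT IL-33 replicate 1 or 3, −0.27 without replicate 2). The transcription and chromatin genes were at −0.16 (−0.28 and −0.08 without 6DKO IL-33 replicate 1 and 2, −0.08 and −0.25 without WT IL-33 replicate 1 and 3, and 0.08 without the libraries rich in macrophage markers). The G1 cyclins and kinases were at −0.02 and turned sign without 6DKO IL-33 replicate 2 (0.04) or WT IL-33 replicate 3 (0.04); without 6DKO IL-33 replicate 1 or 3 or WT IL-33 replicate 1 they were at −0.0092, −0.10 and −0.08, and without the libraries rich in macrophage markers at −0.05. The mean of the mitotic entry and exit genes was 2.90 to 3.21 in WT IL-33 and 2.24 to 2.71 in 6DKO IL-33, and that of the spindle genes 2.88 to 3.09 and 2.19 to 2.70. Limma called 0 of the 50 genes, beside 0.00878% of all tested genes (1 gene, outside the list), with 4 of 50 at an unadjusted p under 0.05 (209 of all 11395), namely Ccne1, Ccne2, Ccnb1 and Cdc20. The log2 fold change was above 0 for 14 genes and under 0 for 36, with a median of −0.29 over the 50 and 0.01 over all tested genes. 6DKO IL-33 values lay wholly under WT IL-33 values in 12 of the 50 and wholly above in 1, beside 7.35% and 6.88% of all tested genes. The count wholly under was thus above its background share, and the count wholly above was under it. The comparison uses the same IL-33 libraries as the comparisons with PBS, and its spread is estimated with the PBS libraries as well. A limma fit of only the IL-33 groups called 0 of the 50 (0% of all tested genes). In that fit 9 of the 50 had an unadjusted p under 0.05 (1050 of all 11395).

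The gene wholly above was Ccne2 (log2 fold change 1.02, standard error 0.36). Those wholly under were Ccne1, Rrm2, Tk1, Ccnb1, Ccnb2, Cdc20, Ube2c, Cdca3, Birc5, Nusap1, Tpx2 and Stmn1. All 9 genes of mitotic entry and exit had a log2 fold change under 0, with a median of −0.59, and 5 of them were wholly under. Cdc20 had the largest difference of the 12, with FPKM of 12.1 ± 5.23 in WT IL-33 and 3.75 ± 1.74 in 6DKO IL-33 (SD, n = 3; log2 fold change -1.47, standard error 0.47, adjusted p = 1). The mean of Ube2c was 24.9 ± 3.57 FPKM in WT IL-33 and 14.8 ± 6.51 FPKM in 6DKO IL-33 (log2 fold change -0.81, standard error 0.47, adjusted p = 1; −0.40 without 6DKO IL-33 replicate 2, a library rich in macrophage markers). For Birc5 the means were 19.9 ± 3.19 and 9.92 ± 4.76 FPKM (log2 fold change -1.01, standard error 0.73, adjusted p = 1), and for Stmn1 152 ± 27.7 and 87.3 ± 13.6 FPKM (log2 fold change -0.79, standard error 0.53, adjusted p = 1). For the DNA replication gene Tk1 they were 22.3 ± 3.08 and 12.9 ± 2.24 FPKM (log2 fold change -0.75, standard error 0.74, adjusted p = 1). The G1 genes Ccnd2, Ccnd3, Cdk4, Cdk6 and Cdk2 had log2 fold changes of 0.24, -0.23, -0.07, 0.06 and 0.04.

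Macrophage markers, chiefly Chil3 and in replicate 3 also Lyz2, were high in 2 of the 3 6DKO IL-33 libraries and in no WT IL-33 library. The remaining 6DKO IL-33 library, replicate 1, had a macrophage sum of 10.5 FPKM, and its averaged log2(FPKM + 1) over the 54 genes was 3.22, where WT IL-33 libraries held 3.45 to 3.60. The difference of that mean between 6DKO and WT under IL-33 was −0.32 with all libraries and −0.32 without the 3 libraries rich in these markers. Without them the median log2 fold change of the 50 genes was −0.18, with 18 above 0, 0 called (0.184% of all tested genes) and 4 of 50 at an unadjusted p under 0.05 (214 of all 11395). The median of −0.29 with all libraries was thus over 1.5 times that without the 3 libraries. The value of 6DKO IL-33 replicate 1 alone lay under all 3 WT IL-33 values in 21 of the 50 genes and above them in 7, beside 23.8% and 25.2% of all tested genes.

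Under PBS the averaged log2(FPKM + 1) of the 54 genes differed by −0.07 between 6DKO and WT (−0.22 without 6DKO PBS replicate 2, and 0.05 without 6DKO PBS replicate 1), and 0 of the 50 genes were called, beside 0.579% of all tested genes, with 6 of 50 at an unadjusted p under 0.05 (1475 of all 11395), no more than the background. The median log2 fold change lay within 0.01 of 0 over the 50 genes and over all tested genes, and was −0.04 over the members not listed at 0 in a whole group. By role the differences under PBS moved with single libraries. 6DKO minus WT was −0.65 for the nucleotide enzymes (−0.02 and −1.13 without 6DKO PBS replicate 1 and 2, −0.34 without WT PBS replicate 3), and −0.48 for the spindle genes (−0.25 without WT PBS replicate 2). For the kinetochore genes it was −0.30 (−0.07 and −0.49 without 6DKO PBS replicate 1 and 3, −0.19 and −0.47 without WT PBS replicate 1 and 3). It was 0.40 for the transcription and chromatin genes (0.08 and 0.64 without 6DKO PBS replicate 1 and 3, 0.15 without WT PBS replicate 2) and 0.63 for the checkpoint and passenger genes (0.9994 and 0.40 without 6DKO PBS replicate 1 and 2). No direction is given for the other roles, whose signs turned with 1 library left out. 6DKO PBS values lay wholly above WT PBS values in 1 of the 50 genes and wholly under in 2. Over all 11395 tested genes these counts were 504 and 479, so neither direction exceeded the background. Ccnd2 lay wholly higher in 6DKO (log2 fold change 0.44, standard error 0.18, adjusted p = 0.347). Cdk4 (log2 fold change -1.23, standard error 0.43, adjusted p = 0.278; −0.58 without 6DKO PBS replicate 1) and Pcna (log2 fold change -1.15, standard error 0.33, adjusted p = 0.21; −0.76 without 6DKO PBS replicate 3) lay wholly lower. Without 6DKO PBS replicate 1, Pcna passed as lower in 6DKO (log2 fold change −1.51, adjusted p = 0.0383). For the interaction the median over the 50 genes was −0.35, against −0.02 over all tested genes. It was −0.19 without 6DKO PBS replicate 2 and −0.05 without the 3 libraries rich in macrophage markers, with 23 of 50 then above 0. With all libraries Cdc20 was the gene with an unadjusted p under 0.05 (log2 difference -1.47, standard error 0.66, adjusted p = 0.89).

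A wider list of 129 other cell cycle genes, 111 of them tested, was put through the same comparisons. In WT 7 of the 111 rose and 3 fell after IL-33 (2.66% and 1.61% of all tested genes), with a median log2 fold change of 0.67, and in 6DKO 4 rose and 2 fell (1.75% and 1.1% of all tested genes), with a median of 0.81. Between genotypes under IL-33, limma called 0 of the 111, with 2 at an unadjusted p under 0.05 (209 of all 11395) and a median within 0.01 of 0. 6DKO IL-33 values lay wholly above WT IL-33 values in 8 of the 111 and wholly under in 3, beside 6.88% and 7.35% of all tested genes. Under PBS 1 was higher and 1 lower in 6DKO (0.579% of all tested genes in either direction), named here after their values were seen: Foxo3, a factor of resting cells (log2 fold change 2.60, standard error 0.48, adjusted p = 0.0358), and Cks2, a partner of Cdk1 (log2 fold change −1.13, standard error 0.22, adjusted p = 0.0499). The Foxo3 call was lost without WT PBS replicate 1 or 2 or any 1 of the 6 IL-33 libraries (adjusted p 0.0601 to 0.0768), and the Cks2 call without any 1 library but WT PBS replicate 2 and 6DKO PBS replicate 2 (adjusted p 0.0653 to 0.0985). Foxo3 was at 0.0617, 0 and 1.03 FPKM in WT PBS, 7.8, 4.56 and 8.72 in 6DKO PBS, 1.57, 2.98 and 2.14 in WT IL-33 and 0.856, 1.32 and 1.9 in 6DKO IL-33. Other processing also ended the Foxo3 call in 7 settings (adjusted p 0.0599 to 0.717) and the Cks2 call in 8 (0.0517 to 0.739). The highest values, 0.717 and 0.739, came from the limma fit of only the PBS groups. In that fit 0.00878% of all tested genes were called, against 0.579% where the IL-33 libraries share in the estimate of the spread. Cks2 was at 216, 144 and 197 FPKM in WT PBS, 70.2, 107 and 75.8 in 6DKO PBS, 140.4, 106 and 119 in WT IL-33 and 164, 155 and 197 in 6DKO IL-33. It rose after IL-33 in 6DKO (log2 fold change 1.03, standard error 0.22, adjusted p = 0.0303), and the WT IL-33 values lay under the WT PBS values without passing (log2 fold change -0.59, standard error 0.22, adjusted p = 0.181); the interaction did not pass (log2 difference 1.63, adjusted p = 0.219). The 6DKO call was lost without 6DKO PBS replicate 1 or 3, WT IL-33 replicate 3 or any 1 of the 3 6DKO IL-33 libraries (adjusted p 0.0524 to 0.135). The interaction called 0 of the 111, with 6 at an unadjusted p under 0.05 (635 of all 11395). Among 33 further mitosis genes 3 rose in WT and 1 in 6DKO, with a median between genotypes under IL-33 of −0.34, while among 32 further origin and fork genes, of which 3 rose in WT and 1 in 6DKO, it lay within 0.01 of 0.

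Gins2, a subunit of the active replicative helicase, was at 0, 0.497 and 0 FPKM in WT PBS, 0, 0.171 and 0 in 6DKO PBS, 8.89, 12.6 and 14.1 in WT IL-33 and 8.03, 2.59 and 12.3 in 6DKO IL-33. It was near 0 under PBS in both genotypes, and rose in WT (log2 fold change 3.47, standard error 0.53, adjusted p = 0.00359) and in 6DKO (log2 fold change 2.84, standard error 0.53, adjusted p = 0.0166). The same held for the mitotic motor Kif22, at 0 to 0.462 FPKM in PBS and 3.23 to 9.89 FPKM in IL-33 libraries, which rose in WT (log2 fold change 2.53, standard error 0.48, adjusted p = 0.012) and in 6DKO (log2 fold change 2.46, standard error 0.48, adjusted p = 0.0194). The 6DKO call for Gins2 was lost without 6DKO IL-33 replicate 1 or 3 (adjusted p 0.0702 and 0.0722), that for Kif22 without any 1 of the 3 6DKO IL-33 libraries (0.0548 to 0.0877), and the WT call for Kif22 without WT IL-33 replicate 1 (0.0554). Gins1, another helicase subunit, was at 0 in all 6 PBS libraries and at 0.265 to 13.9 FPKM under IL-33, and rose in WT (log2(FPKM + 1) difference 3.20, standard error 0.68, adjusted p = 0.0207; adjusted p = 0.171 in 6DKO). Its WT call was lost without WT PBS replicate 1 or WT IL-33 replicate 1 or 3 (adjusted p 0.0545 to 0.0959). Spc24, of the Ndc80 complex, was at 0.145 to 0.846 and 2.33 to 12.9 FPKM and rose in WT (log2 fold change 3.07, standard error 0.51, adjusted p = 0.00615; adjusted p = 0.0659 in 6DKO). Without 6DKO IL-33 replicate 3, Gins1 and Spc24 passed in 6DKO as well (adjusted p 0.0448 and 0.0437). Cdc25b, the phosphatase that activates Cdk1, was at 0 to 18.7 and 20.4 to 27.1 FPKM and rose in 6DKO (log2 fold change 3.81, standard error 0.80, adjusted p = 0.0269; adjusted p = 0.203 in WT). That call was lost without 6DKO PBS replicate 1 or 2, WT IL-33 replicate 2 or 3 or any 1 of the 3 6DKO IL-33 libraries (adjusted p 0.0505 to 0.117), and without WT PBS replicate 2 Cdc25b passed in WT (adjusted p 0.0491).

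The genes that fell are antiproliferative or stress-induced. Gadd45b, a stress gene, was at 2670.0, 2803 and 2686 FPKM in WT PBS, 2588, 2165 and 2537 in 6DKO PBS, 1225, 1337 and 1342 in WT IL-33 and 1095, 1320.0 and 1352 in 6DKO IL-33. Its IL-33 values lay under its PBS values, and it fell in WT (log2 fold change -1.06, standard error 0.11, adjusted p = 0.000312) and in 6DKO (log2 fold change -0.95, standard error 0.11, adjusted p = 0.000828). Btg2, which slows cell division, was at 291 to 458 FPKM in PBS and 186 to 237 FPKM in IL-33 libraries and fell in WT (log2 fold change -0.72, standard error 0.16, adjusted p = 0.0261) and in 6DKO (log2 fold change -0.74, standard error 0.16, adjusted p = 0.0316). These calls were lost without WT PBS replicate 1 or 2 or any 1 of the 3 WT IL-33 libraries in WT (adjusted p 0.0596 to 0.121), and without 6DKO PBS replicate 1, WT IL-33 replicate 1 or any 1 of the 3 6DKO IL-33 libraries in 6DKO (0.0514 to 0.123). Its relative Btg1 was at 959, 999 and 939 FPKM in WT PBS and 635, 715 and 758 FPKM in WT IL-33 and fell in WT (log2 fold change -0.46, standard error 0.11, adjusted p = 0.0357), and did not pass in 6DKO (log2 fold change -0.06, standard error 0.11, adjusted p = 0.863; 0.01 without 6DKO PBS replicate 1). The WT call for Btg1 was lost without WT PBS replicate 1 or 2 or any 1 of the 6 IL-33 libraries (adjusted p 0.0541 to 0.150). Of the 12 genes of this group 3 fell in WT and 2 in 6DKO, beside 1.61% and 1.1% of all tested genes, and 0 were called higher. The log2 fold change was above 0 for 4 of the 12 and under 0 for 8 in WT. In 6DKO it was above 0 for 5 and under 0 for 7.

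Other ways of processing ended several of the calls in WT, with the adjusted p in brackets. Quantile normalization ended those for Mki67 (0.242), Uhrf1 (0.122), Ccna2 (0.0579), Nuf2 (0.163), Kif11 (0.114), Aurka (0.0729), Kif22 (0.0715) and Btg1 (0.0583). It lowered the log2(FPKM + 1) difference of Nuf2 in WT from 1.77 to 1.11. Top2a, Uhrf1, Ccna2 and Cdca8 lost theirs on adding 0.1 in place of 1 (0.0641, 0.0633, 0.132 and 0.0826) and on testing every gene (0.0614, 0.0606, 0.0703 and 0.0799). Array weights ended Mki67 (0.0549), Cdca8 (0.0506), Nuf2 (0.202), Gins1 (0.145), Kif22 (0.0552), Btg1 (0.102) and Btg2 (0.0548), and a replicate block Mcm6 (0.0517), Ccna2 (0.0639), Cdca8 (0.0714), Nuf2 (0.0755) and Btg1 (0.0784). Without trend Mcm6 (0.0615), Cdca8 (0.0530), Btg1 (0.343) and Btg2 (0.162) did not pass. In a fit of only the groups compared the same was true of Top2a (0.0502), Mcm6 (0.0529), Ccna2 (0.0938), Stmn1 (0.0782), Btg1 (0.0726) and Btg2 (0.0598), and without the 3 libraries rich in macrophage markers of Mcm6 (0.0991), Uhrf1 (0.0992), Ccna2 (0.129), Stmn1 (0.0568), Btg1 (0.0828) and Btg2 (0.0748). Ccne1, Ube2c, Cdc20, Ccnb1, Birc5, Gins2, Spc24 and Gadd45b kept their WT calls in each of these settings. With the filter raised to 2 FPKM, 10 of the 38 listed genes then tested were called in WT, all higher (4.69% of all genes tested called). Ccne1, Mki67, Aurka, Nuf2 and Kif11, called in the fit reported, average 0.923 to 1.74 FPKM and were not tested there. Calls gained in WT were Ccne2 on adding 0.1 (0.0479), Tyms with quantile normalization (0.0488), Hmgb2 with only the groups compared (0.0498), Ndc80 in 5 settings (0.0191 to 0.0454), Nusap1 without trend and with a replicate block (0.0464 and 0.0372), Plk1 with only the groups compared and without the 3 libraries (0.0296 and 0.0273), and Cdc6 and Cenpe on testing every gene (0.0233 and 0.0034).

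In 6DKO, leaving out the 3 libraries rich in macrophage markers ended every call for the 54 genes: Ccne2 (0.142), Hmgb2 (0.424), Ube2c (0.0554), Cdc20 (0.482), Ccnb1 (0.0978) and Aurka (0.0801). It also ended those for Gins2 (0.101), Cdc25b (0.545), Kif22 (0.275), Btg2 (0.362) and Cks2 (0.210). The log2(FPKM + 1) differences did not all shrink: without these libraries they were larger for Ube2c (4.26), Ccnb1 (2.60), Aurka (2.33), Gins2 (3.17) and Cks2 (1.16), and smaller for Cdc20 (1.49), Ccne2 (1.54) and Hmgb2 (0.69). For Ube2c, Ccnb1, Aurka, Gins2 and Cdc20 the remaining 6DKO PBS libraries were listed at 0, so these values are no folds. Only 1 library then stood for 6DKO IL-33. Quantile normalization ended Ccne2 (0.410), Cdc20 (0.124), Ccnb1 (0.0555), Aurka (0.158), Gins2 (0.0833) and Kif22 (0.0770), with a log2 fold change of 0.71 for Ccne2. It lowered the log2(FPKM + 1) difference of Aurka in 6DKO from 1.88 to 1.20. Array weights ended Ccne2 (0.0920), Cdc20 (0.141), Aurka (0.0920), Gins2 (0.0839), Kif22 (0.0928), Btg2 (0.0752) and Cks2 (0.0635). Cdc20 (0.0709), Aurka (0.0549) and Cks2 (0.0676) did not pass with a replicate block, nor Hmgb2 (0.0789), Btg2 (0.184), Gadd45b (0.0640) and Cks2 (0.102) without trend. With only the groups compared Hmgb2 (0.0852), Gins2 (0.0664), Cdc25b (0.0697), Btg2 (0.0540) and Cks2 (0.0671) did not pass, and Tpx2 did (0.0359). Beside Mki67 and Kif11, calls gained in 6DKO were Ccne1 on adding 0.1 (0.0213), Ccnd2, as lower, on testing every gene (0.0484), Cdc6 and Cenpe there (0.0481 and 0.0169), Spc24 without trend (0.0319), and Mcm7, as lower, in 4 settings (0.0214 to 0.0495).

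The letters CCAAT stood before the start of most of these genes. RefSeq starts on GRCm38.p6 were found for 45 of the 54 genes, and the 250 bases before each start were searched on both strands, as in 27025 genes in all. CCAAT, read as ATTGG on the opposite strand, was in 31 of 45 promoters (68.9%) and in 17 of 21 mitosis genes (81.0%), against 34.5% of all promoters. TTTGAA, read as TTCAAA on the opposite strand and the core of a motif of late cell cycle genes, was in 9 of 45 (20%) and 5 of 21 mitosis genes (23.8%), against 16.3% of all. Forms of the E2F motif, TTTGGCGC and also TTTCGCGC, were in Cdk1, Mcm5 and Mcm6 (6.67%), against 0.673% of all. The motifs do not contain one another, a match is a description of the letters, and no test was made. The 150 bases before the start are shown for genes called in WT, in lower case with matches to these motifs on either strand in capitals: cyclin B1 (chr13:100786487-100786636, minus strand), Cdc20 (chr4:118437344-118437493, minus strand), Ube2c (chr2:164769779-164769928, plus strand), Kif11 (chr19:37376232-37376381, plus strand), Mki67 (chr7:135716380-135716529, minus strand), Birc5 (chr11:117849087-117849236, plus strand) and Mcm6 (chr1:128359706-128359855, minus strand). Cdc20, Ube2c, Kif11 and Mki67 hold both CCAAT and TTTGAA letters within this window, Ccnb1 holds CCAAT in 2 places, and Birc5 holds none of the motifs. Mcm6 holds 3 matches to the E2F forms, 2 of which overlap on opposite strands.
Ccnb1: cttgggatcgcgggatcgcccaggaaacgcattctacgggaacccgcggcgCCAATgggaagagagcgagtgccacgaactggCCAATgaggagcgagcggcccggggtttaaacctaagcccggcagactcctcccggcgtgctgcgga
Cdc20: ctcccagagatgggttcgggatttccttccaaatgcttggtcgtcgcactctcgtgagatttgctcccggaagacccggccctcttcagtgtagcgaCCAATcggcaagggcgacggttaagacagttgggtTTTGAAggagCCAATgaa
Ube2c: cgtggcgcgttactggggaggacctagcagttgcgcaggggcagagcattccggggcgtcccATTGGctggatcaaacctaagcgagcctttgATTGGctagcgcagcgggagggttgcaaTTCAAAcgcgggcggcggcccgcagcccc
Kif11: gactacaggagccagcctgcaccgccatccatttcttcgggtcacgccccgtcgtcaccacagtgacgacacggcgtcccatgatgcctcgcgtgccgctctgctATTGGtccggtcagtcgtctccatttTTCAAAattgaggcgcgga
Mki67: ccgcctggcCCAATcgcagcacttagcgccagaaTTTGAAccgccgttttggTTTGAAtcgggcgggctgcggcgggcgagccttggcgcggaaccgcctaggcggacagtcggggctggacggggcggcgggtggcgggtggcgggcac
Birc5: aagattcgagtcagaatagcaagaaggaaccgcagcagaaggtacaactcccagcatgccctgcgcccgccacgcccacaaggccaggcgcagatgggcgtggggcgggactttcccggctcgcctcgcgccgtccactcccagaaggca
Mcm6: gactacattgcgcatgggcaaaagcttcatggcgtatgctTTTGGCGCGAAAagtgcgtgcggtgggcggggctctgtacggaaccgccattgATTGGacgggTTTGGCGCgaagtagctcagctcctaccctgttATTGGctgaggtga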

How the data were processed

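The authors deposited FPKM for 24346 genes in each of 12 libraries of lung ILC2s (4 groups of 3), made, by the submitters' processing notes, with TopHat2 2.1.1, Bowtie2 and Cuffdiff 2.2.1 on mm10. The paper names another TopHat version, and Cuffnorm in place of Cuffdiff. All value columns were used, and no read totals are given. Values were taken as log2(FPKM + 1) for the 11395 genes averaging 0.5 FPKM or more and fitted with limma 3.58.1 (R 4.3.3; 4 group means, empirical Bayes with trend, 8 residual degrees of freedom), which was tested on simulated data; p-values are two-sided, Benjamini-Hochberg adjusted over all tested genes, and called under 0.05. Exact permutation tests used scipy 1.17.1, and figures matplotlib 3.10.9. Members and lists were chosen with earlier results of these data known. Values or ranges were given for Mki67, Top2a, Cdk1, Pcna, Cdkn1a and Cdkn1b, for up to 4 called genes a role with the largest averaged change, and for up to 5 other cell cycle genes a direction; Aurka, Ccnd2, Mcm7, Rrm2, Tyms, Ccnb2, Cenpa, Foxo3 and Cks2 were added after their values were seen. Gene positions and overlaps were read from GENCODE on GRCm38. Alternatives tried were adding 0.1 in place of 1, testing every gene, raising the filter to 2 FPKM, quantile normalization, median ratio scaling, no trend, array weights, a replicate block, only the groups compared, stricter thresholds and leaving out each library.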

Additional observations from a re-analysis of the deposited data

How the results depend on the processing

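With each library left out in turn, the genes called for IL-33 against PBS ranged over 8 to 18 in WT (15 with all libraries) and over 2 to 11 in 6DKO (6 with all; the 11 are 10 higher and 1 lower, Mcm7), and between genotypes under PBS over 0 to 1; under IL-33 and for the interaction limma called 0 in every alternative fitted (the interaction has no fit of only the groups compared), with 4 and 1 of 50 at an unadjusted p under 0.05 in the fit reported. At an adjusted p under 0.01 the counts were 6 in WT and 1 in 6DKO. The 6DKO count, all higher in the fit reported, was 10 with a pseudocount of 0.1 (9 higher and 1 lower, Mcm7), 12 without a filter (54 genes tested; 10 higher and 2 lower, Mcm7 and Ccnd2), 2 with quantile normalization, 3 with array weights and 0 without the 3 libraries rich in macrophage markers, which was chosen after seeing the data and leaves 1 library in 6DKO IL-33; apart from the fewer samples of the last, and the entry of Cdc6 and Cenpe without a filter, the cause was not tested. The replicate numbers did not pair libraries (correlations across genes of −0.047 to 0.025 between libraries of the same number), and with a replicate block the counts were 12 in WT and 4 in 6DKO. Between genotypes under IL-33, the genes at an unadjusted limma p under 0.05 were 0 of 50 with a pseudocount of 0.1 (198 of all 11395). They were 13 of 50 with array weights (1085 of all) and 9 of 50 with only the groups compared (1050 of all).

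The mean log2(FPKM + 1) over the 54 genes, higher under IL-33 by 1.40 in WT and 1.15 in 6DKO, was higher by 2.70 and 2.42 with a pseudocount of 0.1 and by 1.14 and 0.85 with quantile normalization, and the genotype difference under IL-33 was −0.41 with a pseudocount of 0.1. Leaving out libraries, these differences ranged over 1.37 to 1.45, 1.03 to 1.30 and −0.37 to −0.27, and that under PBS over −0.22 to 0.05. Quantile normalization moved the median of all genes from 0.16 to −0.04 in WT and from 0.14 to −0.02 in 6DKO, with the list's medians then 1.003 and 0.73.

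Among 1966 single-gene values under alternatives, 1707 kept their direction and their side of the threshold, 213 lost a call, 37 gained one and 9 turned sign, all 9 with 1 library left out and none of them called. With libraries left out, the log2 fold change of Pcna in WT ranged over −0.15 to 0.23 (lowest without WT IL-33 replicate 3), and that of Cdkn1b in WT over −0.40 to 0.36 (above 0 without WT PBS replicate 1 or, at 0.07, WT IL-33 replicate 3). In 6DKO it ranged over −0.15 to 0.17 for Cdkn1a (−0.15 without 6DKO PBS replicate 2, −0.0025 without replicate 3, and −0.08 and −0.05 without 6DKO IL-33 replicate 1 and 3), over −0.0496 to 0.39 for Cdkn1b (lowest without 6DKO IL-33 replicate 3) and over −0.10 to 0.011 for Btg1 (highest without 6DKO PBS replicate 1). FPKM without read totals set no floor for a value of 0, so genes listed at 0 under PBS may have been read at levels these libraries could not show.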
